A study of Mus musculus with 15 samples.

Results

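The insulin-like growth factor (IGF) genes described here are 8 genes of the insulin-like growth factor system: the ligands Igf1 and Igf2, the receptors Igf1r and Igf2r, and the binding proteins Igfbp2, Igfbp3, Igfbp4 and Igfbp5. They were taken from 22180 genes as those array rows that carry 1 of these 8 names as their sole gene symbol. Each had exactly 1 such row, so 8 of 8 were measured by 1 row each.

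The ligands are small secreted proteins related to insulin. They act through Igf1r, a receptor tyrosine kinase that signals through PI3K and AKT, and AKT phosphorylates and inhibits the kinases GSK-3 alpha and GSK-3 beta. Igf2r takes up IGF2 for breakdown, and the binding proteins hold the ligands outside the cell until proteases release them. In the newborn cerebellum, progenitors of granule neurons divide at the surface under the meninges, and IGF signalling is known to support their growth and survival.

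RNA came from 15 cerebella of newborn C57BL/6 mice, dissociated, enriched for granule neuron progenitors on a density gradient and measured on 1 Affymetrix Mouse Gene 2.1 ST array each. They fall by label into 3 groups, each of 5 libraries. The double knockout, labelled DKO, lacks GSK-3 alpha and GSK-3 beta in these progenitors. In the Math1-Cre control the samples are described as Gska+-, GskBff with Math1-Cre, so that only GSK-3 beta is deleted. The no-Cre control is described as Gska+-, GskBff without Cre, so that GSK-3 beta is not deleted, and for no-Cre 5 the description leaves out the Gsk3b genotype. Both controls therefore carry 1 altered Gsk3a allele, and the DKO descriptions do not spell out the alleles. Cre is driven by the Math1 (Atoh1) promoter, which is active in granule neuron progenitors. Deletion by Cre is therefore not directed at the meninges, choroid plexus, glia or vessels that share the tissue. Whether the loss of Gsk3a depends on Cre is not stated, so it may not be limited to the progenitors. The age is given as postnatal day 1 in the characteristics and day 2 in the growth protocol. Nothing in the labels names litters or days, so libraries that share a litter or a day cannot be told. A limma p-value here sets a difference between groups against the spread within groups, with each library counted as independent. Precision is limited by how many arrays there are.

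Values are deposited log2 expression levels, where 1 unit is a doubling. They can be compared between libraries for 1 gene but not between genes, because each gene is read by its own probes. The row annotated to Gsk3a also carries the symbol 9130221H12Rik, and 4 libraries do not match their label on it. It read 9.47, 8.22, 9.37, 7.89 and 8.27 in DKO 1 to 5, 8.25, 8.03, 9.48, 9.50 and 9.51 in Math1-Cre 1 to 5, and 9.42 to 9.59 in the no-Cre libraries. DKO 1 and DKO 3 thus lay near the no-Cre libraries, and Math1-Cre 1 and Math1-Cre 2 as low as the other DKO libraries. The Gsk3b row did not mark its deletion, with DKO libraries at 10.78 ± 0.14 (SD, n = 5), Math1-Cre libraries at 10.78 ± 0.09 and no-Cre libraries at 10.77 ± 0.10, and the labels do not say whether its probes lie in the deleted part. Each comparison is therefore given by label over 15 libraries and again over the 11 libraries left without those 4. Those 4 were chosen by the Gsk3a row. The fit over 11 libraries thus sets only DKO libraries low on that row against controls high on it. Its p-values are therefore not independent of the row. A further description, with no test, sets the 5 libraries low on the Gsk3a row (DKO 2, 4 and 5 and Math1-Cre 1 and 2, all under 9.0) beside the 10 high ones. The libraries nearest that threshold read 8.27 below it and 9.37 above it. All 12 granule neuron progenitor markers listed were above the background level of 4.93, which is the 95th percentile of the mean levels of 1390 olfactory and vomeronasal receptor genes. Of 13 HOX genes of the brainstem and spinal cord, 12 were at or under it in their mean over the libraries. The other, Hoxa2, ran from 3.91 to 7.39, highest in no-Cre 3 and next in DKO 5, at 6.22. The mean of the HOX list was highest in the same libraries, at 4.05 and 3.89. In overall distribution 4 arrays stood apart, DKO 3, DKO 4, DKO 5 and no-Cre 4, with an interquartile range over all rows of 3.43 to 3.56 against 3.73 to 3.85 on the other 11, and a median level of the receptor genes of 3.97 to 4.11 against 3.49 to 3.71.

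All 8 IGF genes were above that background. No member passed the test in any comparison by label (limma, Benjamini-Hochberg adjusted over 22180 genes, threshold 0.05). In DKO against no-Cre 0 of 8 members were called beside 0.0721% of all genes, and 1 of 8 had an unadjusted p under 0.05 beside 17.4% of all genes. For DKO against Math1-Cre the count was 0 of 8 beside 0.55%, with 2 of 8 at the unadjusted level beside 23.0%. Math1-Cre against no-Cre gave 0 of 8 beside 0.0%, with 1 of 8 at the unadjusted level beside 3.23%. In the DKO comparisons the members' shares at the unadjusted level lay near those of all genes. The median difference over the 8 members was -0.07, -0.01 and -0.05 in the 3 comparisons, beside -0.02, -0.05 and 0.02 over all genes. Without the 4 libraries 0 of 8 members were called in each comparison, beside 1.08%, 0.541% and 0.0% of all genes, and 2, 1 and 0 of 8 had an unadjusted p under 0.05, beside 12.7%, 15.9% and 2.2%.

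**Figure D1:**
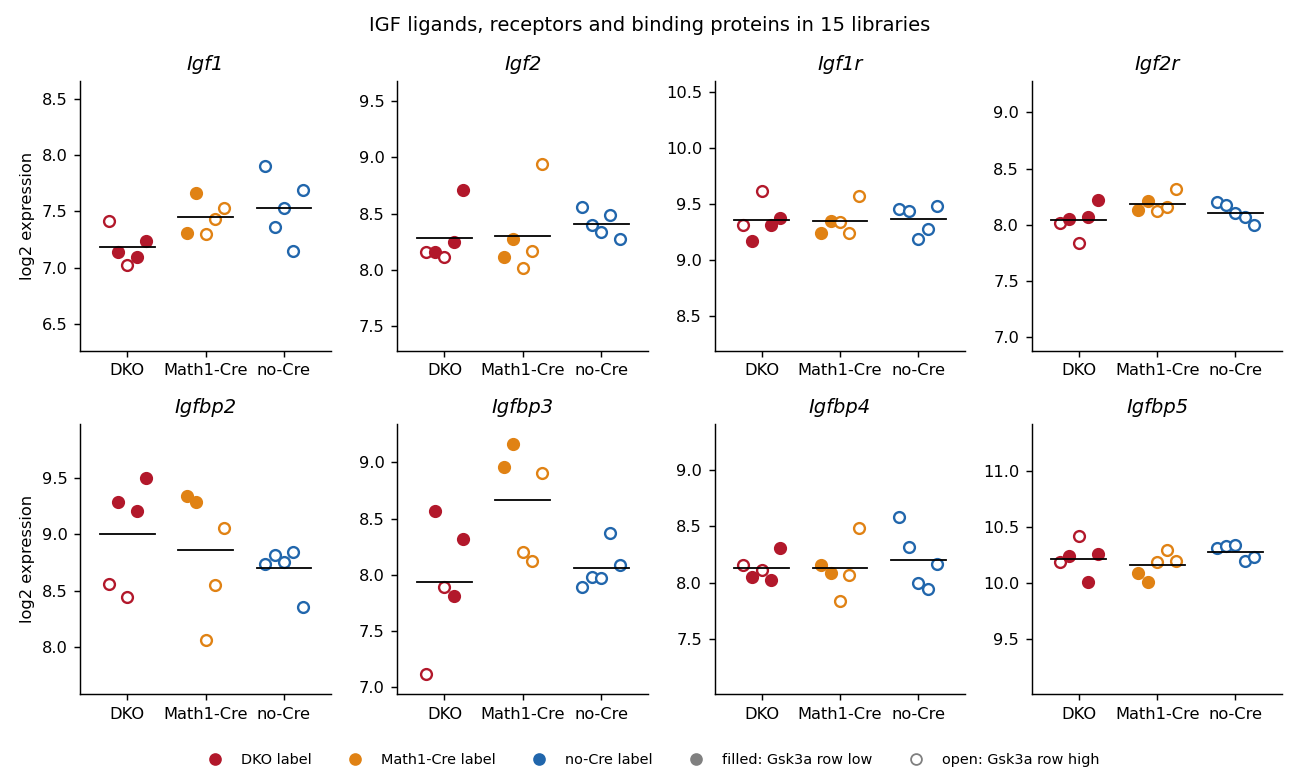
Deposited log2 expression of the 8 IGF genes (vertical axes, each spanning the same range) in the 5 DKO, 5 Math1-Cre and 5 no-Cre libraries (horizontal axis). Points are libraries in replicate order, filled where the Gsk3a row is low, and lines are group means; the filled points of Igfbp2 lie between 9.21 and 9.50, above every open point.

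The clearest pattern was in Igfbp2, a binding protein secreted in the developing brain by choroid plexus and glia among other cells. Its level was 8.56, 9.29, 8.44, 9.21 and 9.50 in DKO 1 to 5. It was 9.34, 9.29, 8.06, 8.55 and 9.06 in Math1-Cre 1 to 5, and 8.74, 8.82, 8.75, 8.84 and 8.35 in no-Cre 1 to 5. Within both the DKO and the Math1-Cre label the high libraries were those low on the Gsk3a row. The 5 low libraries spanned 9.21 to 9.50 with a median of 9.29, and the 10 high libraries spanned 8.06 to 9.06 with a median of 8.65. These ranges did not overlap, by 0.14, and their medians differed by 0.64, a ratio of 1.56. Igfbp2 was the only member of 8 without overlap on this split, beside 1.51% of all genes (334 of 22180), of which 147 were higher in the low libraries (0.663%). The ranges stayed apart after quantile normalization, by 0.24, and after centring each array on its median, by 0.23.

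By label the same gene showed no called difference. DKO minus no-Cre was 0.30 ± 0.24 (SE), with a 95% interval of -0.22 to 0.82 and a limma adjusted p of 0.534. DKO minus Math1-Cre was 0.14 ± 0.24, from -0.38 to 0.66, with an adjusted p of 0.754. Fitted with array spread as a covariate, these were 0.18 ± 0.26 and -0.03 ± 0.29. Without the 4 libraries the differences were larger, at 0.63 ± 0.19 against no-Cre (unadjusted p = 0.00598, adjusted p = 0.177) and 0.77 ± 0.21 against Math1-Cre (unadjusted p = 0.00339, adjusted p = 0.151). Neither passed the threshold over all genes, and the second did so, at 1.03 ± 0.18 with a limma adjusted p of 0.0439, when Math1-Cre 5 was also left out. Math1-Cre 5, at 9.06, was the highest Math1-Cre library in that fit, and leaving it out kept only Math1-Cre 3 and 4, at 8.06 and 8.55.

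Other gene lists moved on the same split of libraries. Of 11 genes of WNT feedback, such as Axin2 and Nkd1, 9 were higher in the low libraries without overlap, beside 0.663% of all genes. The mean level of that list was 8.12 to 8.38 in the low and 6.64 to 6.96 in the high libraries. The mean of the 12 granule neuron progenitor markers was 8.57 to 8.71 in the low and 8.95 to 9.34 in the high libraries. Of the 12, 4 were lower without overlap, beside 0.843% of all genes. Choroid plexus and ependymal markers, 9 genes led by Ttr, overlapped widely, at a mean of 7.59 to 8.41 against 7.07 to 8.59. Markers of astrocytes and Bergmann glia, 10 genes led by Fabp7, read 8.57 to 8.83 against 8.36 to 8.78, with 0 of 10 apart. Because the tissue is a mixture, fewer cells of a type and less RNA per cell cannot be told apart, and the part of these markers in the level of Igfbp2 was not tested.

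**Figure D2:**
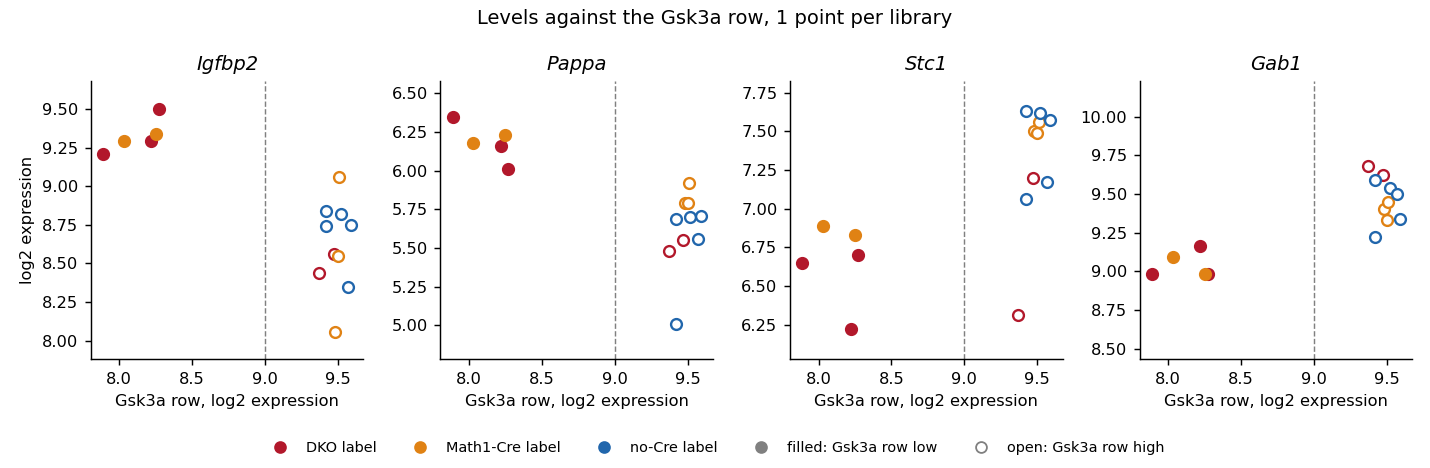
Deposited log2 expression of Igfbp2, Pappa, Stc1 and Gab1 (vertical axes) against the Gsk3a row (horizontal axes, log2), 1 point per library, filled where the row is under 9.0 (dashed line). Igfbp2 and Pappa are higher and Gab1 is lower in all 5 filled libraries than in any of the 10 open ones, while for Stc1 DKO 3, at 6.31, lies among the filled points.

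Both RefSeq starts of Igfbp2 are shown because it is the member that separates the libraries, and the start of Igf1 because it holds the core letters to which TCF and LEF, the DNA-binding partners of beta-catenin, are known to bind. Each sequence is the 250 bases before the start on the gene's strand in GRCm38.p6, whereas the arrays were processed on mm9. Capitals mark TCAAAG, or CTTTGA where that core lies on the other strand, and the E-box CACGTG. The Igfbp2 windows are chr1:72824230-72824479 and chr1:72825137-72825386 on the plus strand, and that of Igf1 is chr10:87860861-87861110 on the plus strand.
Igfbp2 start 1: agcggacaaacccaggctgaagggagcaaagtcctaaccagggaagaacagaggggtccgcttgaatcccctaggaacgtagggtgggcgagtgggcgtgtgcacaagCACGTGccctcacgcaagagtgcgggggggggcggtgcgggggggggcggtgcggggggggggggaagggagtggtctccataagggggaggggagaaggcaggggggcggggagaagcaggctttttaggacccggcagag
Igfbp2 start 2: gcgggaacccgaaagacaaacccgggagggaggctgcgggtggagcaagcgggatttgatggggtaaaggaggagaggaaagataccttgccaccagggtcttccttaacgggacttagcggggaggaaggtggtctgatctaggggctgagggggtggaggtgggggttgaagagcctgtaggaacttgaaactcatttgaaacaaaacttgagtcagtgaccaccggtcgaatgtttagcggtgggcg
Igf1: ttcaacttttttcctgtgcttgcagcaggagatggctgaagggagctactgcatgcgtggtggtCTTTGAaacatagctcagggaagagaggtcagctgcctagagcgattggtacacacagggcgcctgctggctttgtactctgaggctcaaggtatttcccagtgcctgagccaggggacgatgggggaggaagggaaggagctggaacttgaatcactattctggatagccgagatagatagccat
Neither Igfbp2 window held the TCF and LEF core on either strand, and 1 of them held CACGTG, at 142 bases before the start. Igf1 held the core on its minus strand. Promoter windows were found for 8 of 8 members, 12 in all, of which 3 held the core (Igf1, Igf1r and 1 of the 4 windows of Igf2), beside 13.8% of 32851 windows of all genes. CACGTG stood in 2 of the 12 windows (Igfbp2 and Igf2r), beside 6.02% of all windows. These are matches of letters in a short window and say nothing of binding.

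Igf1, the ligand that circulates from the liver and is also made locally in brain, had the lowest unadjusted p of the members in DKO against no-Cre. It read 7.41, 7.14, 7.02, 7.09 and 7.24 in DKO 1 to 5, a mean of 7.18 ± 0.15 (SD, n = 5). The Math1-Cre libraries read 7.31, 7.66, 7.30, 7.43 and 7.53, and the no-Cre libraries 7.90, 7.36, 7.53, 7.15 and 7.69. All DKO libraries but DKO 1 were under every Math1-Cre library, while no-Cre 2 and no-Cre 4, at 7.36 and 7.15, lay within the DKO range. DKO minus no-Cre was -0.35 ± 0.12 (SE), with a 95% interval of -0.61 to -0.08, an unadjusted p of 0.0132 and a limma adjusted p of 0.183. Leaving out no-Cre 4 gave -0.44 ± 0.11 and an adjusted p of 0.0360, the only setting tried over the labelled groups that brought a member past the threshold. No-Cre 4 is the 1 control array with the narrow spread seen in 3 of the 5 DKO arrays, and the difference was -0.22 ± 0.11 when that spread was a covariate (adjusted p = 0.386). DKO minus Math1-Cre was -0.27 ± 0.12 (adjusted p = 0.213), -0.13 after centring on array medians, which shifts each difference in that comparison by 0.14, and -0.09 ± 0.12 with array spread as a covariate (adjusted p = 0.837). Without the 4 libraries DKO minus no-Cre was -0.37 ± 0.14 (adjusted p = 0.308). On the Gsk3a split Igf1 overlapped, at 7.09 to 7.66 in low and 7.02 to 7.90 in high libraries. Microglia and macrophage markers, from cells that can make Igf1, had a mean level over 10 genes of 5.19 to 5.73 in DKO, 5.51 to 6.26 in Math1-Cre and 5.44 to 6.06 in no-Cre libraries, with 4 of the 10 (Aif1, Tmem119, Trem2 and C1qa) at or under background, and their part in the level of Igf1 was not tested.

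Igf2, the imprinted ligand expressed from the paternal allele in most tissues and known from meninges and choroid plexus in brain, had its highest levels in 1 DKO and 1 Math1-Cre library. It read 8.16, 8.16, 8.11, 8.25 and 8.71 in DKO 1 to 5. Math1-Cre libraries read 8.11, 8.27, 8.02, 8.17 and 8.94, and no-Cre libraries 8.56, 8.40, 8.34, 8.49 and 8.27. DKO 5 and Math1-Cre 5 were the highest of 15 libraries, and the other DKO and Math1-Cre libraries, at 8.02 to 8.27, were none of them above the lowest no-Cre library. The difference between DKO and no-Cre was -0.13 ± 0.15 (95% interval -0.46 to 0.19, limma adjusted p = 0.677), and between DKO and Math1-Cre -0.03 ± 0.15 (-0.35 to 0.30, adjusted p = 0.936). The first of these was -0.24 ± 0.14 without DKO 5, -0.28 ± 0.08 without the 3 replicate-5 libraries (adjusted p = 0.126) and -0.03 ± 0.19 over 11 libraries, and the second was 0.13 ± 0.11 without Math1-Cre 5.

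In the same pair of libraries markers of meningeal fibroblasts stood high. Over 12 such genes, among them Dcn and Slc6a13, the mean level was 7.59 in DKO 5 and 7.93 in Math1-Cre 5 and 6.47 to 7.31 in the other 13 libraries. DKO 5 and Math1-Cre 5 were the highest pair for 11 of the 12 genes, beside 1.29% of all genes, and Foxd1 was the only 1 of the 12 at or under background. The pair was highest for 4 of 10 pericyte and smooth muscle markers, 1 of 9 choroid plexus and ependymal markers, and 2 of the 8 members, Igf2 and Igf2r. It was also highest for 2 of 7 IGF2 mRNA-binding protein and imprinted growth genes, Dlk1 and Cdkn1c. The same held for 1 of 10 endothelial markers, 1 of 10 microglia and macrophage markers and 1 of 13 HOX genes. The labels give the replicate-5 libraries of all 3 groups a shared code, cg1724, whose meaning is not stated. No-Cre 5 carries it too, and read 8.27 for Igf2 and 7.02 for the meningeal list. The part of meningeal RNA in the level of Igf2 was not tested.

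**Figure D3:**
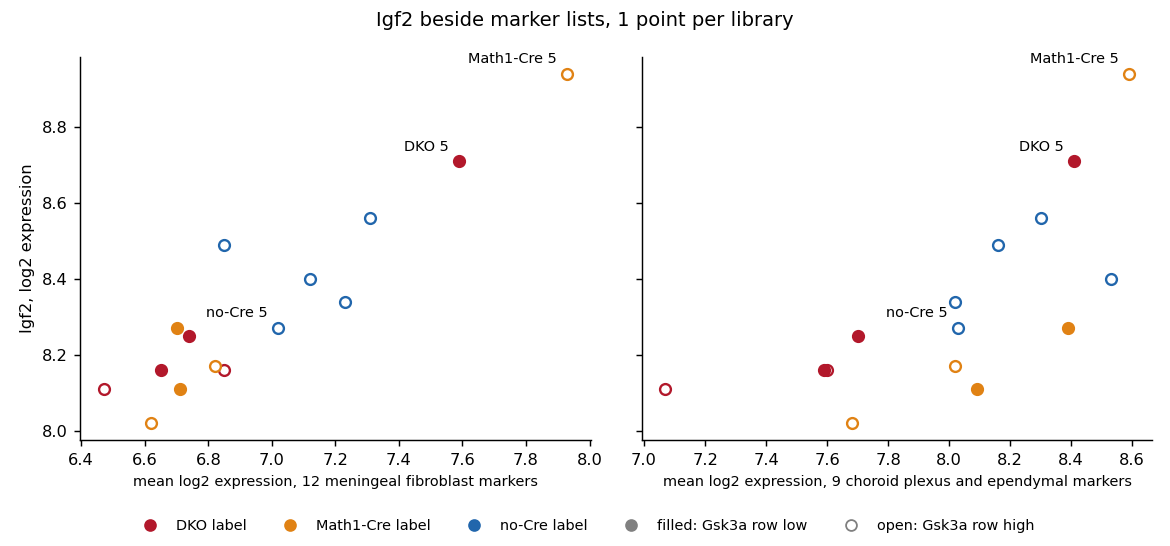
Igf2 (vertical axis, deposited log2 expression) against the mean log2 expression of 12 meningeal fibroblast markers and of 9 choroid plexus and ependymal markers (horizontal axes), 1 point per library, coloured by label and filled where the Gsk3a row is low. DKO 5 and Math1-Cre 5, at 8.71 and 8.94 for Igf2, lie at the upper right of the meningeal panel, and no-Cre 5, with the same code, does not.

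An intron of Igf2 holds the microRNA gene Mir483, which the array measures by a row of its own. Its 2 mature products are shown because they come from the Igf2 locus, with the seed, bases 2 to 8, in capitals, from the RefSeq table of GRCm38.p6, where they lie on the minus strand at chr7:142654932-142654952 and chr7:142654968-142654989.
mmu-miR-483-3p: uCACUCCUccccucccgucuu
mmu-miR-483-5p: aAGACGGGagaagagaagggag
The seeds differ between the 2 products. The Mir483 row ranged from 4.30 in DKO 4 to 6.14 in DKO 2, and read 5.62 in DKO 5 and 5.54 in Math1-Cre 5, inside that range. The row of the antisense transcript Igf2os was highest in DKO 5 and Math1-Cre 5, at 4.33 and 4.69, but all of its values lay under background.

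Igf1r, the signalling receptor, varied little. It read 9.31, 9.17, 9.62, 9.31 and 9.38 in DKO 1 to 5, 9.24, 9.35, 9.34, 9.24 and 9.57 in Math1-Cre 1 to 5, and 9.46, 9.44, 9.19, 9.28 and 9.48 in no-Cre 1 to 5. The 3 groups covered each other. The 95% interval of the difference was -0.21 to 0.18 for DKO minus no-Cre and -0.18 to 0.20 for DKO minus Math1-Cre. Its SD over 15 libraries was at percentile 26.1 among all genes.

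For Igf2r, the receptor that clears IGF2, Math1-Cre libraries read 8.12 to 8.32 and DKO libraries 7.84 to 8.22, with no-Cre at 8.00 to 8.20. DKO minus Math1-Cre was -0.15 ± 0.07 (95% interval -0.31 to 0.01, limma adjusted p = 0.235), and -0.09 ± 0.09 over 11 libraries (adjusted p = 0.648). DKO 3 was lowest, at 7.84, and Math1-Cre 5 highest, at 8.32. Airn, the antisense RNA through which Igf2r is imprinted, was under background in its mean, and no more is read from it.

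Igfbp3, the main carrier of IGFs in blood, spread most among the 8. It read 7.12, 8.57, 7.89, 7.81 and 8.32 in DKO 1 to 5, 8.96, 9.16, 8.20, 8.12 and 8.91 in Math1-Cre 1 to 5, and 7.89, 7.98, 7.97, 8.37 and 8.09 in no-Cre 1 to 5. The range of 2.03 is a ratio of 4.09, and its SD over the libraries was at percentile 98.4 among all genes, that of Igfbp2 at 96.0. DKO 1 was lowest, and Math1-Cre 1, 2 and 5 were the highest. DKO minus Math1-Cre was -0.72 ± 0.24 (95% interval -1.24 to -0.20, unadjusted p = 0.00934, limma adjusted p = 0.118). The difference of Math1-Cre from no-Cre was 0.60 ± 0.24 (unadjusted p = 0.0254, adjusted p = 1.0). Without the 4 libraries that went against their label the differences were -0.17 ± 0.23 and 0.34 ± 0.20, with Math1-Cre 5 still among the highest. DKO minus no-Cre turned from -0.12 ± 0.24 to 0.17 ± 0.20 in the same step. Libraries low on the Gsk3a row read 7.81 to 9.16 and high ones 7.12 to 8.91, which overlap.

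The remaining binding proteins did not separate any groups. Igfbp4, which the protease PAPP-A is known to cleave, read 8.02 to 8.31 in DKO, 7.84 to 8.49 in Math1-Cre and 7.94 to 8.58 in no-Cre libraries, and DKO minus no-Cre was -0.07 ± 0.13 (95% interval -0.34 to 0.20). Igfbp5, a binding protein held in extracellular matrix, read 10.01 to 10.42, 10.01 to 10.30 and 10.20 to 10.34. Its DKO minus no-Cre difference was -0.06 ± 0.08 (-0.22 to 0.11), and it differed by 0.41 between the highest and lowest of 15 libraries, at percentile 17.4 of SD among all genes. On the Gsk3a split Igfbp5 read 10.01 to 10.26 in low and 10.19 to 10.42 in high libraries.

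**Figure D4:**
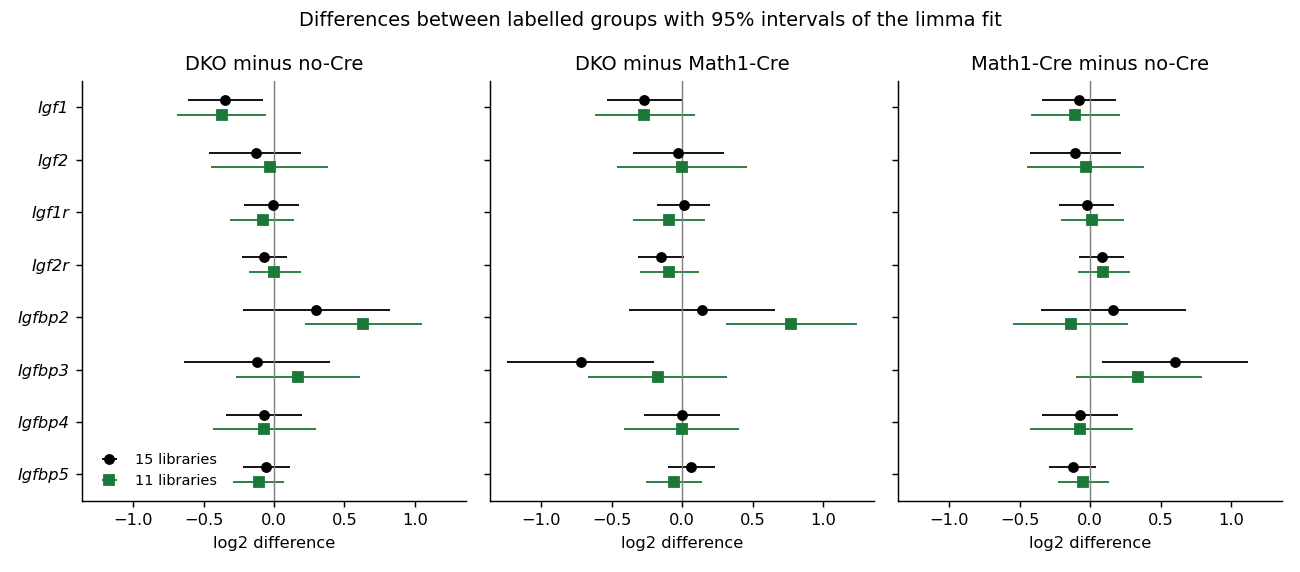
Differences in log2 expression between labelled groups (horizontal axes) for the 8 IGF genes (vertical axis), as limma estimates with 95% intervals over 15 libraries (circles) and over the 11 libraries left without the 4 that went against their label on the Gsk3a row (squares). The squares of Igfbp2 lie at 0.63 and 0.77 in the DKO comparisons, and no difference passed the threshold after adjustment over all genes.

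The other genes of the pathway were read from 5 lists with 58 genes, of which 51 were measured. Over 15 libraries 0 of 51 passed the test in any comparison, beside the same shares of all genes as for the members. Without the 4 libraries Stc1 and Pik3r3 fell in DKO against no-Cre, Stc1 fell in DKO against Math1-Cre, and 0 of 51 rose. Over all genes 0.64% were lower and 0.437% higher in the first of these comparisons, and 0.252% and 0.289% in the second. The share called was 1 of 7 among the proteases of binding proteins and their inhibitors and 1 of 18 in the chain from PI3K to AKT and mTOR, and 0 of 9, 0 of 10 and 0 of 7 in the other 3 lists. Among the 7 genes of the protease list the median difference against no-Cre was -0.28 over 15 libraries and -0.08 over 11, beside -0.02 over all genes in each. Against Math1-Cre it was -0.32 in each, beside -0.05 and -0.06. The medians of the other pathway lists against no-Cre over 15 libraries lay between -0.13 and -0.04. Marker lists in the same comparison had medians of -0.73 (choroid plexus and ependymal), -0.30 (meningeal fibroblast) and -0.29 (endothelial), with 0 genes called in each, and their part in the protease list was not tested. Ins2, Insl6, Insrr, Igfbp1, Igfbp6, Igfals, Pappa2 and Stc2 were at or under background.

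Stc1 encodes stanniocalcin-1, a secreted inhibitor of PAPP-A. It read 7.20, 6.22, 6.31, 6.65 and 6.70 in DKO 1 to 5. Math1-Cre libraries read 6.83, 6.89, 7.50, 7.49 and 7.56, and no-Cre libraries 7.63, 7.62, 7.57, 7.06 and 7.17. Every DKO library but DKO 1 was under every control library. Over 15 libraries the difference was -0.80 ± 0.20 against no-Cre (limma adjusted p = 0.0924) and -0.64 ± 0.20 against Math1-Cre (adjusted p = 0.0960). Over 11 libraries these became -0.89 ± 0.15 (adjusted p = 0.0181) and -0.99 ± 0.17 (adjusted p = 0.0285), ratios of 1.85 and 1.99. The first call was lost without DKO 2, DKO 4 or no-Cre 2 or with array spread as a covariate (adjusted p = 0.0567 to 0.0638), and the second without DKO 2, DKO 4 or any of Math1-Cre 3, 4 and 5 or with that covariate (0.0581 to 0.127). DKO 3 is high on the Gsk3a row but had the second lowest Stc1 level of the 15, so the low libraries, at 6.22 to 6.89, and the high ones, at 6.31 to 7.63, overlap by that library alone.

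Pappa, the gene of the protease PAPP-A that releases IGFs from Igfbp4, was higher in the libraries low on the Gsk3a row. DKO 2, 4 and 5 read 6.16, 6.35 and 6.01, Math1-Cre 1 and 2 read 6.23 and 6.18, and the 10 high libraries spanned 5.01 to 5.92. DKO minus no-Cre was 0.38 ± 0.17 by label (limma adjusted p = 0.281) and 0.64 ± 0.15 over 11 libraries (adjusted p = 0.0826), neither past the threshold. DKO minus Math1-Cre was -0.07 ± 0.17 by label (adjusted p = 0.822) and 0.34 ± 0.17 over 11 libraries (adjusted p = 0.351). Every Math1-Cre library, at 5.79 to 6.23, lay above every no-Cre library, at 5.01 to 5.71. Math1-Cre minus no-Cre was 0.45 ± 0.17 by label (unadjusted p = 0.0205), not past the threshold after adjustment. Pappa, Gab1 and Adamts1, the 3 of 51 pathway genes without overlap on this split, were chosen after their values were seen. Over all genes 1.51% did not overlap, with 0.663% higher and 0.843% lower in the low libraries.

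Gab1, an adaptor that carries receptor signals to PI3K, read 8.98 to 9.16 in the low and 9.22 to 9.68 in the high libraries. Adamts1, a secreted metalloprotease, read 7.44 to 8.08 against 8.11 to 8.74, ranges that overlapped after quantile normalization or centring. Pik3r3, a regulatory subunit of PI3K, read 9.63, 9.71 and 9.51 in DKO 2, 4 and 5, and 9.97 and 9.93 in DKO 1 and 3. Every DKO library was under every no-Cre library, whose median was 10.10. Math1-Cre 1, 2 and 5, at 9.79, 9.57 and 9.78, were also under every no-Cre library. Math1-Cre 3 and 4, at 10.11 and 10.02, were not. DKO minus Math1-Cre was -0.10 ± 0.10 over 15 libraries (limma adjusted p = 0.573) and -0.35 ± 0.10 over 11 libraries (adjusted p = 0.16), neither past the threshold. DKO minus no-Cre was -0.33 ± 0.10 over 15 libraries (adjusted p = 0.149) and passed the threshold over 11 libraries, at -0.46 ± 0.09 (adjusted p = 0.0321). That call was lost when any 1 of DKO 2, 4 and 5, Math1-Cre 4 and no-Cre 1, 2, 3 and 5 was left out (adjusted p = 0.0517 to 0.120), and with quantile normalization (0.0823), centring (0.158) or array spread as a covariate (0.0694).

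Of the 3 genes whose levels followed each member most closely over the 15 libraries, ranked by Pearson correlation among 13656 genes, those of Igfbp2 were Sostdc1 (r = 0.93), Tff3 (0.88) and Dapl1 (0.88). Sostdc1, a secreted antagonist of BMP and WNT, read 10.23 to 10.41 in the low and 7.72 to 9.27 in the high libraries on the Gsk3a split. All values of Tff3, at 4.02 to 4.49, lay under background. For Igfbp3 the 3 closest genes were Prss23, a secreted protease (0.91), Ccn2 (0.89) and Slc2a1, the glucose transporter of brain vessels (0.88). Igf2 was followed by Foxc1, a transcription factor of meninges and 1 of the meningeal markers used above (0.93), Rcn3 (0.92) and F13a1 (0.91), and without the replicate-5 libraries these were 0.78, 0.76 and 0.73 over 12 libraries. Igf2r was followed by Acy3 (0.93), Slc5a6 (0.93) and Pdgfrb, a receptor of pericytes that is also in the pericyte marker list (0.92). Pericyte and smooth muscle markers, 10 genes with Tagln and Myh11 at or under background, had a mean of 6.19 to 6.82 in DKO, 6.53 to 7.03 in Math1-Cre and 6.45 to 6.84 in no-Cre libraries, and their part in the level of Igf2r was not tested. Igf1 was closest to Rit1 (0.92), Fhl4 (0.90) and Rbm43 (0.89), and Igf1r to Megf10 (0.84), Usp33 (0.83) and Notch1 (0.82). Igfbp4 was closest to Notch2 (0.88), Alx4 (0.85) and Col3a1 (0.84), and Igfbp5 to Pid1 (0.84), Paxip1 (0.81) and Lsm2 (0.81). These correlations describe libraries that share tissue makeup and processing and carry no test.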

How the data were processed

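RNA of 15 cerebella was hybridised to 1 array each. Each row of the deposited table holds log2 expression. The authors' tools were RMA and Partek 6.6 on build mm9, per the submitters' processing notes, with settings not given in the sources used here. They ran from 2.11 to 13.49 and were used as deposited. The platform annotation gives 1 gene symbol to 23521 of 41345 rows, several to 1814 and none to 16010. Of those with 1 symbol, 23328 matched the RefSeq gene table of GRCm38.p6. The row with the highest mean stood for a gene, which left 22180 genes. The members, lists, tests and the Gsk3a split were chosen with earlier results of these data known, so no result here is independent support for that split.

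Group means were fitted with limma over 15 libraries (12 residual degrees of freedom) and over 11 libraries (8), with eBayes, two-sided p-values, Benjamini-Hochberg adjustment over all genes within each comparison and a threshold of 0.05. The fit over 15 libraries was tested on simulated data, and the fit over 11 libraries was not. Groups and replicate numbers came from the labels. Genes named by rule were the 8 members, Gsk3a and Gsk3b, up to 4 called genes of each pathway list, the leading genes of marker lists, and the 3 closest to each member among genes above the 30th percentile of mean level. Outside that rule, Axin2 was named as an example, and transcripts of the Igf2 and Igf2r loci for their position. List genes at or under background, and some genes picked after their values were seen, were named as well. Other settings were quantile normalization, centring, the filter at that percentile, array weights, robust moderation with a trend, a fit of only the groups compared, blocks, array spread as a covariate, and each library left out. R 4.3.3, limma 3.58.1, Python 3.11.15, pandas 2.3.3 and matplotlib 3.10.9 were used.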

Additional observations from a re-analysis of the deposited data

Results flagged for a closer look

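Of 24 sets of 5 values, 8 genes in 3 groups, 3 had a library farther from the others than the Dixon limit of 0.71 of the range, a limit that chance passes in about 1 of 20 groups. Igf2 in DKO 5 was 8.71, with the other DKO libraries at 8.11 to 8.25. Igf2 in Math1-Cre 5 was 8.94, with the others at 8.02 to 8.27. Igfbp2 in no-Cre 5 was 8.35, below the other no-Cre libraries at 8.74 to 8.84. All 3 libraries carry replicate number 5.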

How the results depend on the processing

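Over 24 member differences and 26 other settings each, 624 values in all, 576 kept their direction and their side of the threshold, 1 passed it (Igf1, DKO minus no-Cre, without no-Cre 4) and 47 changed sign, in 14 differences of at most 0.16. Without the 4 libraries that went against their label, differences with a changed sign were, for DKO minus no-Cre, Igf2r 0.00 and Igfbp3 0.17; for DKO minus Math1-Cre, Igf1r -0.09, Igfbp4 -0.00 and Igfbp5 -0.06; and for Math1-Cre minus no-Cre, Igf1r 0.01 and Igfbp2 -0.14. Quantile normalization gave Igf1r 0.04 and Igf2r 0.00 (DKO minus no-Cre) and Igf2 0.08 (DKO minus Math1-Cre). Centring on array medians, which shifts every difference by 0.10, 0.14 and -0.03 in the 3 comparisons, gave Igf1r 0.09, Igf2r 0.03, Igfbp4 0.03 and Igfbp5 0.05 (DKO minus no-Cre) and Igf2 0.11 (DKO minus Math1-Cre). Without the code cg1724 Igf1r was 0.01 (DKO minus no-Cre) and Igf2 0.02 (DKO minus Math1-Cre), and array weights gave Igf2 0.05 in the latter. Array spread as a covariate gave Igf1r -0.00 and Igfbp2 -0.03 there. The gap of Adamts1 became -0.11 and -0.10 after quantile normalization and centring. Leaving out 1 library gave, for DKO minus no-Cre, Igf1 -0.44 to -0.25, Igf1r -0.08 to 0.03, Igfbp3 -0.28 to 0.08 and Igfbp4 -0.14 to 0.02; for DKO minus Math1-Cre, Igf2 -0.13 to 0.13, Igf1r -0.05 to 0.06, Igfbp2 -0.06 to 0.28 and Igfbp4 -0.07 to 0.09; for Math1-Cre minus no-Cre, Igf1 -0.17 to 0.01, Igf1r -0.08 to 0.01 and Igfbp4 -0.16 to 0.02. The cause of these changes was not tested.

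Counts of called genes moved more than the members did. In DKO against no-Cre the 16 calls became 239 without the 4 libraries, 0 with quantile normalization, 6 with centring, 33 with trend and robust moderation, 2 with only the groups compared, 739 with array weights, 7 with cg1724 as a block, 2 without cg1724, 2 with array spread, and 0 to 1546 with 1 library left out. In DKO against Math1-Cre the 122 calls became 20, 23, 236 and 773 with quantile normalization, centring, trend and robust moderation, and array weights, 1 without cg1724, 1 with array spread, and 0 to 1288 with 1 library left out. Over 11 libraries, 239 became 80 to 1060 and 120 became 44 to 446 with 1 left out, and 120 became 68 with array spread. The replicate number as a block gave 6 and 0 calls in the DKO comparisons (3710 and 4892 at an unadjusted p under 0.05) and called no member. Deviations of same-numbered libraries correlated at -0.30 to 0.30 over 15 pairs, 6 of them over 0.1. Differently numbered libraries were not correlated for comparison, so these values do not settle whether the numbers pair the samples.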
